A study of Mus musculus with 11 samples.

Results

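The 10 genes described here were the cytokines of type 2 immunity and the genes used to read the alternative activation of macrophages. They were taken by gene name from the table of 49315 genes: Il4, Il5, Il13, Il4ra, Tslp, Arg1, Retnla, Chil3, Gata3 and Ccl24, and each name matched 1 row. RNA of whole skin was sequenced in bulk from 11 neonatal mice, from biopsies of 4 mm. All mice, controls included, carried the Foxp3-DTR allele (B6.129(Cg)-Foxp3tm3(DTR/GFP)Ayr/J) on a C57BL/6J background. In this strain, cells that express Foxp3, the transcription factor of regulatory T cells (Tregs), also make the receptor for diphtheria toxin (DT), so that DT removes them from every tissue, not from skin alone. The 2 control mice received PBS in place of DT. DT was given at 30 ng per g of body weight. The 3 ΔETreg mice received it on days 6 and 8 after birth and were harvested on day 9. The 3 ΔLTreg mice received it on days 10 and 12, and the 3 ΔTreg mice on days 6, 8, 10 and 12, and both groups were harvested on day 13. The study describes its controls as age-matched, but the labels do not give the day of harvest of each control mouse. The same 2 control mice served in all 3 comparisons with control, whose other groups were of different ages, so a part of age in these comparisons cannot be told apart from depletion, nor can it between ΔETreg skin and groups of day 13.

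Type 2 immunity is the arm of the response directed at worms and allergens, and in skin it underlies atopic inflammation. Th2 cells and group 2 innate lymphoid cells release IL-4, IL-5 and IL-13, and keratinocytes release TSLP, which acts upstream of them. IL-4 and IL-13 signal through receptors that share the IL-4Rα chain and activate STAT6, and macrophages that receive this signal make arginase 1, RELMα, Ym1 and the chemokine CCL24.

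Total counts per mouse ranged from 23377571 to 34159435. All 10 genes passed the expression filter that left 18375 genes for testing, but Il5, Il13 and Chil3 reached the level of that filter in ΔTreg libraries and in no other, so that they could enter the test only with a difference of this direction. Where no mouse of a group had over 3 counts of a gene, the gene is called undetected there, a floor for counting error only. Pairs of mice within a group gave a median chi-square of 1.02 to 3.52 over genes, above the 0.455 of counting error. Foxp3 gave 20 and 14 counts in the control mice, 10, 16 and 11 in the ΔETreg mice, 23, 13 and 13 in the ΔLTreg mice and 9, 19 and 18 in the ΔTreg mice. Its counts did not fall to the floor in any mouse given DT, so the labels could not be checked by a loss of this transcript. Keratin and collagen genes that define skin (Krt5, Krt14, Krt1, Krt10, Col1a1 and Col1a2) were at high levels in all mice, but not at the same level. Of 8 such genes, with Dcn and Pdgfra, Krt14 passed as higher in ΔTreg against control skin and 4 passed as lower at an adjusted p of 0.05. Krt1, a keratin of differentiated epidermis, went from 811 to 212 CPM (counts scaled to the TMM-corrected library size), a log2 fold change of -1.93 (SE, standard error, 0.279, adjusted p = 0.000664), and Col1a1, a fibroblast collagen, from 7830 to 3850 CPM (log2 fold change -1.02, SE 0.294, adjusted p = 0.03). Krt10 and Col1a2 were the other 2. In ΔLTreg against control skin, Krt1 (287 CPM, adjusted p = 0.0141) and Pdgfra, a fibroblast receptor that went from 63.6 to 26.9 CPM (adjusted p = 0.0194), passed as lower. The part of these differences in the results on the 10 genes was not tested. From Xist and a Y-linked gene there were 1 male and 1 female control mice, 2 males and 1 female in the ΔETreg group, and 1 male and 2 females in each of the ΔLTreg and ΔTreg groups.

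Il4, Il13 and Il5 lie beside each other on chromosome 11 of GRCm38. Il4 spans 53602982 to 53618669 on the minus strand, Il13 53631324 to 53634702 on the minus strand and Il5 53720794 to 53725106 on the plus strand, with 12654 bases between Il4 and Il13 and 86091 between Il13 and Il5. Il4ra lies on chromosome 7 (125552120 to 125579474), Gata3 on chromosome 2 (9857078 to 9890034), Arg1 on chromosome 10 (24915221 to 24927484), Retnla on chromosome 16 (48842551 to 48844461), Chil3 on chromosome 3 (106147554 to 106167564) and Ccl24 on chromosome 5 (135569937 to 135573049).

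The sequences before the first exon of 4 genes are shown 5′ to 3′ on the strand of the gene, because Retnla and Chil3 went from low or undetected to high counts in ΔTreg skin and because Il13 and its neighbour Il4 differed in their response. They are RefSeq promoter windows on GRCm38.p6, ending at the last base before the first annotated exon: Retnla chr16:48842359-48842550 (plus strand), Il4 chr11:53618670-53618915, Il13 chr11:53634703-53634952 and Chil3 chr3:106167565-106167814 (minus strand). Capitals mark, on either strand, matches to the STAT6 motif (TTC and GAA with any 4 bases between), the motif of other STAT proteins (TTC and GAA with any 3 bases between) and the GATA motif (AGATAA).
Retnla: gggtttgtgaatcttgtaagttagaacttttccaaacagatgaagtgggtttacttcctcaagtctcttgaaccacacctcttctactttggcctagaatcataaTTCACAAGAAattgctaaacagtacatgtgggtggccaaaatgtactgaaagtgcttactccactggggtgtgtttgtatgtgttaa
Il4: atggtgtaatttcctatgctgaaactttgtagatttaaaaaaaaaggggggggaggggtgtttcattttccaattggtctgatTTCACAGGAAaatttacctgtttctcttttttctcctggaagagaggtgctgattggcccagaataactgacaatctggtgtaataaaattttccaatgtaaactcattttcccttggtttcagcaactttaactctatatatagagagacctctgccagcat
Il13: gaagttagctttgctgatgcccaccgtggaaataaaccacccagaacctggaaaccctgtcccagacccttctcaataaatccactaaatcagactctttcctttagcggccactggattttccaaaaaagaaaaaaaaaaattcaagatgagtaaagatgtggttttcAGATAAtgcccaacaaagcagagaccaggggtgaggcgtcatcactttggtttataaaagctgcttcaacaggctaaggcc
Chil3: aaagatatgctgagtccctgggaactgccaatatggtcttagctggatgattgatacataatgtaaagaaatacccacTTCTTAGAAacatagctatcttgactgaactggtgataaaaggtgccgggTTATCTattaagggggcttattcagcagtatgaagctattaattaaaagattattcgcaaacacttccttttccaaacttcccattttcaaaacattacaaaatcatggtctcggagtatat
In windows from 250 bases before to 50 after the RefSeq start, Retnla and Il4 each held 1 match to the STAT6 motif, starting at -145 and -167. Of all 32851 promoters of the same length, 6.95% held this motif. Chil3 held the motif of other STAT proteins at -172, found in 8.3% of promoters, and the GATA motif on the other strand at -122, and Il13 held the GATA motif at -81, found in 11.2%. No match was found in the windows of Gata3, Il4ra and Il5, and a second start of Il4 had a match of the same kind as Chil3 at -4 that reached into an exon. Both STAT motifs are palindromes, so a match on both strands was counted as 1. A match is a description of these letters and says nothing about binding.

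In ΔTreg skin, Il13 was 24.2-fold above control, whereas Il4 differed by less than the spread between mice and Il5, undetected in control, reached only 5 to 15 counts. The receptor chain gene Il4ra rose 2.45-fold. Among genes used to read the alternative activation of macrophages, Retnla rose 53.6-fold, Ccl24 25.2-fold and Arg1 1.95-fold. Chil3 went from at most 1 count in control to at least 111 in each ΔTreg mouse. In all, 8 of the 10 genes passed an adjusted p of 0.05 by the quasi-likelihood test of edgeR (Benjamini-Hochberg over all genes tested), all higher in ΔTreg skin, where 21.5% of all genes passed and 12.1% passed as higher. Without the 3 genes that reached the filter in ΔTreg skin alone, 5 of 7 passed. DESeq2 called 7 of the 10. The median log2 fold change of the 10 genes was 2.59 (1.45 with undetected control levels set to 3 counts per library), beside -0.01 over all genes tested.

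Among the ligands, Il13, which drives mucus and itch responses of barrier tissues, gave 8 and 4 counts in the control mice, 3, 7 and 6 in the ΔETreg mice, 10, 8 and 3 in the ΔLTreg mice and 152, 171 and 161 in the ΔTreg mice. The 3 ΔTreg mice stood above all other mice, and the other groups overlapped. Scaled to library size, this was 5.52 ± 0.862 CPM (SD, n = 3) against 0.22 ± 0.0854 (SD, n = 2) in control skin, a log2 fold change of 4.60 (SE 0.379, adjusted p = 1.58e-05). Against ΔLTreg skin, which was harvested on the same day, the log2 fold change was 4.55 (SE 0.312, adjusted p = 6.32e-06). Il13 reached the expression filter in ΔTreg skin alone, so it could pass these tests only as higher.

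Il4, the cytokine that directs T cells towards Th2 and B cells towards IgE, gave 30 and 22 counts in the control mice, 20, 18 and 20 in the ΔETreg mice, 30, 23 and 21 in the ΔLTreg mice and 24, 36 and 24 in the ΔTreg mice. Levels in ΔTreg and control skin overlapped, with a log2 fold change of -0.04 (SE 0.257, adjusted p = 0.94, 95% interval -0.539 to 0.468). The unlike response of these neighbours showed in their ratio within a mouse. Per kilobase of exon, the Il13 level was 0.271 and 0.185 times that of Il4 in control skin, 0.153, 0.396 and 0.306 times in ΔETreg and 0.339, 0.354 and 0.145 times in ΔLTreg skin. In ΔTreg skin it was 6.45, 4.84 and 6.83 times. The ratio was higher in every ΔTreg mouse than in any other mouse. It was chosen after the values were seen, and Il13 was among the genes that could enter the test only with a difference of this direction, so these values are a description with no test.

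Il5, the growth and survival factor of eosinophils, gave 0 and 1 counts in the control mice, 3, 1 and 1 in the ΔETreg mice and 1, 0 and 3 in the ΔLTreg mice, all at or under the floor. In ΔTreg skin it had 10, 15 and 5 counts. The ratio of counts scaled to depth was 18 against control, with a 95% counting interval of 3.0 to 735 (adjusted p = 0.0217). Against ΔLTreg skin this ratio was 7.64 (counting interval 2.69 to 29.8, adjusted p = 0.0225). At these counts the size of the difference was poorly resolved. The call against control was lost without either control mouse, and that against ΔLTreg skin without ΔLTreg mouse 1 or 2 (adjusted p up to 0.0686). Il5 reached the filter in only 2 ΔTreg libraries and could be tested in only 9 of 11 fits that left out 1 mouse. In the annotation, 27.1% of the exon bases of Il5 are shared with Gm12214, an antisense gene at 0 counts in all mice.

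Tslp (chromosome 18, 32815383 to 32819797), the epithelial cytokine upstream of the type 2 response, gave 9 and 4 counts in the control mice, 12, 5 and 14 in the ΔETreg mice, 14, 6 and 13 in the ΔLTreg mice and 6, 8 and 17 in the ΔTreg mice. All 4 groups overlapped. The log2 fold change of ΔTreg against control skin was 0.51 (SE 0.603, adjusted p = 0.596), with a 95% interval of -0.672 to 1.69, so that a change as large as that of Arg1 was not detectable at this depth.

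Il4ra, which codes for the chain common to the receptors of IL-4 and IL-13, gave 1505 and 1173 counts in the control mice, 1472, 1627 and 1146 in the ΔETreg mice, 1284, 1622 and 2036 in the ΔLTreg mice and 3570, 3711 and 3341 in the ΔTreg mice. The ΔTreg mice, at 122 ± 27 CPM (SD, n = 3), lay above all others, and the other 3 groups overlapped. Against control skin, at 49.7 ± 4.23 CPM (SD, n = 2), the log2 fold change was 1.29 (SE 0.217, adjusted p = 0.00164), and against ΔLTreg skin it was 1.15 (SE 0.188, adjusted p = 0.00166).

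Gata3, the transcription factor of Th2 cells and innate lymphoid cells, is also a factor of hair follicle and epidermal differentiation, and it was by far the most abundant of the 10 genes in control skin. It gave 6841 and 5858 counts in the control mice, 6660, 7082 and 5886 in the ΔETreg mice, 8082, 6527 and 8687 in the ΔLTreg mice and 6400, 9391 and 8604 in the ΔTreg mice. Scaled to depth it was 236 ± 4.4 CPM (SD, n = 2) in control and 273 ± 6.53 (SD, n = 3) in ΔTreg skin, a 1.15-fold difference without overlap (log2 fold change 0.21, SE 0.0647, adjusted p = 0.0419). Without 1 mouse this call was lost in 8 of 11 fits, with an adjusted p of up to 0.218, namely without either control mouse, any ΔTreg mouse, ΔETreg mouse 1 or 2 or ΔLTreg mouse 2. ΔTreg and ΔLTreg skin overlapped (log2 fold change 0.09, SE 0.0575, adjusted p = 0.317). Inner root sheath markers, genes of a part of the hair follicle, summed to 33600 to 51300 CPM in control and 51100 to 56500 CPM in ΔTreg skin, where 2 of 7 (Krt28 and Krt72) passed as higher. Their part in the Gata3 result was not tested.

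**Figure D1:**
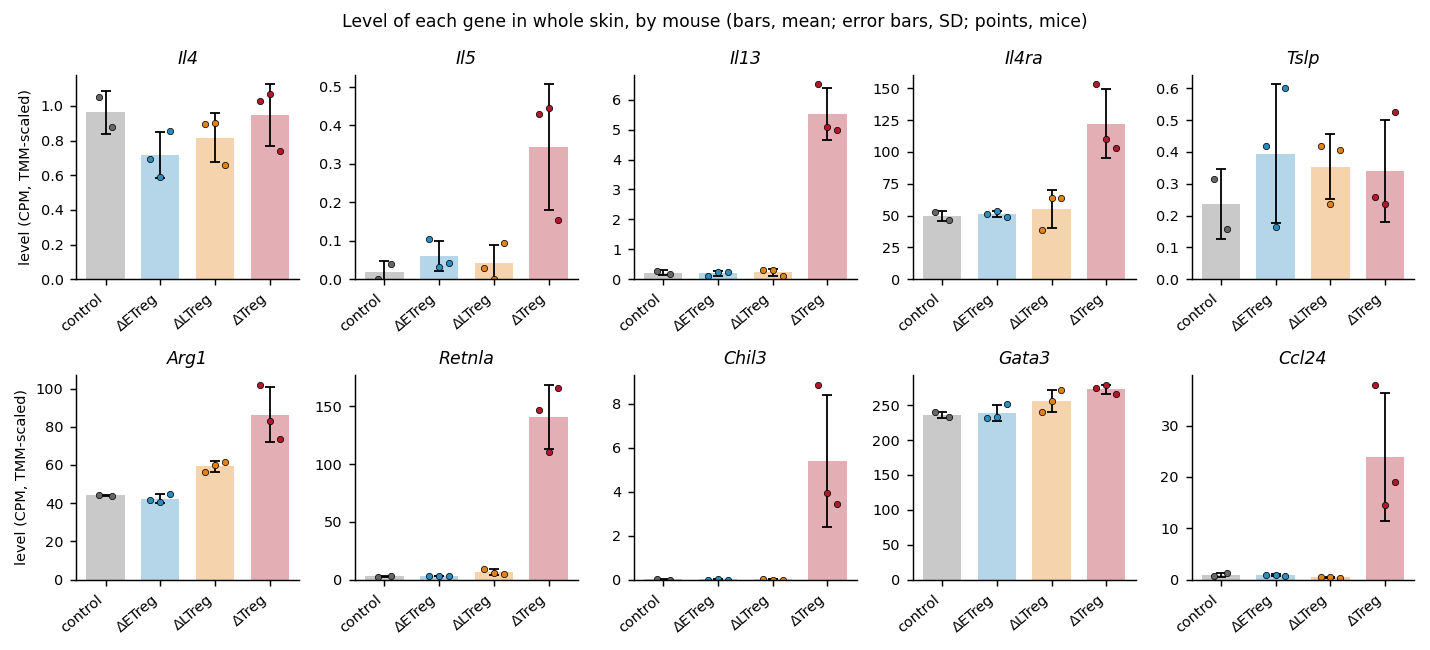
Level of each of the 10 genes in CPM (vertical axes, each from 0) in the 4 groups (horizontal axes). Points are mice, bars are means and error bars are SD over 2 control mice or 3 mice of each other group. Every ΔTreg mouse lies above every other mouse for Il5, Il13, Il4ra, Arg1, Retnla, Chil3 and Ccl24, the ΔTreg levels of Il4 and Tslp overlap those of each other group, and Arg1 is intermediate in ΔLTreg skin.

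Retnla, which codes for RELMα (FIZZ1), a secreted protein of alternatively activated macrophages, showed the largest fold among members detected in control skin. It gave 60 and 80 counts in the control mice, 94, 98 and 62 in the ΔETreg mice, 316, 148 and 149 in the ΔLTreg mice and 3416, 3717 and 5354 in the ΔTreg mice. The ΔTreg mice lay far above all others, and each ΔLTreg mouse lay above each control and ΔETreg mouse when scaled to depth. The level was 141 ± 28 CPM (SD, n = 3) in ΔTreg against 2.64 ± 0.768 CPM (SD, n = 2) in control skin, a log2 fold change of 5.74 (SE 0.323, adjusted p = 1.63e-06). Against ΔLTreg skin the log2 fold change was 4.40 (SE 0.241, adjusted p = 1.74e-06).

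Chil3 codes for Ym1, a chitinase-like protein secreted by alternatively activated macrophages and also made by neutrophil precursors. It gave 1 and 0 counts in the control mice, 0, 1 and 0 in the ΔETreg mice, 1, 0 and 0 in the ΔLTreg mice and 207, 133 and 111 in the ΔTreg mice. It was thus undetected in all 8 mice outside the ΔTreg group. The ratio of counts scaled to depth was 271 against control, with a counting interval of 48.4 to 10700 (adjusted p = 9.42e-05), and 459 against ΔLTreg skin, with an interval of 82.0 to 18200 (adjusted p = 2.57e-05). Each of these ratios rests on 1 count in the lower group, so their size is uncertain. Chil3 reached the expression filter in ΔTreg skin alone, so it could pass these tests only as higher. Of the windows of 100 bases along the Chil3 exons, 4.93% are also found in Chil4 or Gm6522. Reads were paired and of 150 bases before trimming, and how many could not be assigned to 1 gene was not tested.

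Ccl24, the chemokine eotaxin-2 that attracts eosinophils, gave 19 and 31 counts in the control mice, 28, 28 and 16 in the ΔETreg mice, 15, 14 and 10 in the ΔLTreg mice and 886, 489 and 616 in the ΔTreg mice. The ΔTreg mice lay above all others, and the ΔLTreg mice below the control mice. The level was 23.9 ± 12.5 CPM (SD, n = 3) in ΔTreg against 0.95 ± 0.403 CPM (SD, n = 2) in control skin, a log2 fold change of 4.65 (SE 0.46, adjusted p = 5.54e-05). Against ΔLTreg skin it was 5.77 (SE 0.425, adjusted p = 9.17e-06).

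Arg1, the arginase that competes with nitric oxide synthase for arginine, had the smallest fold of the 4 effector genes and was well expressed in control skin. It gave 1263 and 1104 counts in the control mice, 1201, 1236 and 1045 in the ΔETreg mice, 1881, 1530 and 1973 in the ΔLTreg mice and 2381, 2802 and 2382 in the ΔTreg mice. Scaled to depth, the ΔTreg mice lay above the ΔLTreg mice, which in turn lay above the mice of the other groups. The level was 86.3 ± 14.5 CPM (SD, n = 3) in ΔTreg against 44.1 ± 0.18 CPM (SD, n = 2) in control skin, a log2 fold change of 0.97 (SE 0.113, adjusted p = 0.000166). Against ΔLTreg skin it was 0.54 (SE 0.0975, adjusted p = 0.00304). Outside ΔTreg skin, Arg1 was highest in ΔLTreg mouse 3 (61.8 CPM). This mouse had the lowest sum of macrophage and monocyte markers of all mice (121 CPM). Which cells held the Arg1 RNA was not tested.

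Within the ΔTreg group, mouse 1 had the highest level of Il13 (6.52 CPM), Il4ra (153 CPM), Arg1 (102 CPM), Chil3 (8.88 CPM) and Ccl24 (38.0 CPM). For Chil3 and Ccl24 it was more than the other mice by well over the distance between those, which had 3.95 and 3.43 CPM of Chil3 and 14.5 and 19.0 CPM of Ccl24. Retnla was highest in mouse 3 (166 CPM) and Il4, Il5 and Gata3 in mouse 2. Without mouse 1, or any other mouse, Il13, Il4ra, Arg1, Retnla, Chil3 and Ccl24 stayed past the threshold against control, and the lowest log2 fold changes over all mice left out were 4.27 for Il13, 1.10 for Il4ra, 0.83 for Arg1, 5.46 for Retnla and 4.15 for Ccl24. Il13 and Chil3 reached the expression filter in ΔTreg skin alone and could pass only as higher, so for them this is a description.

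**Figure D2:**
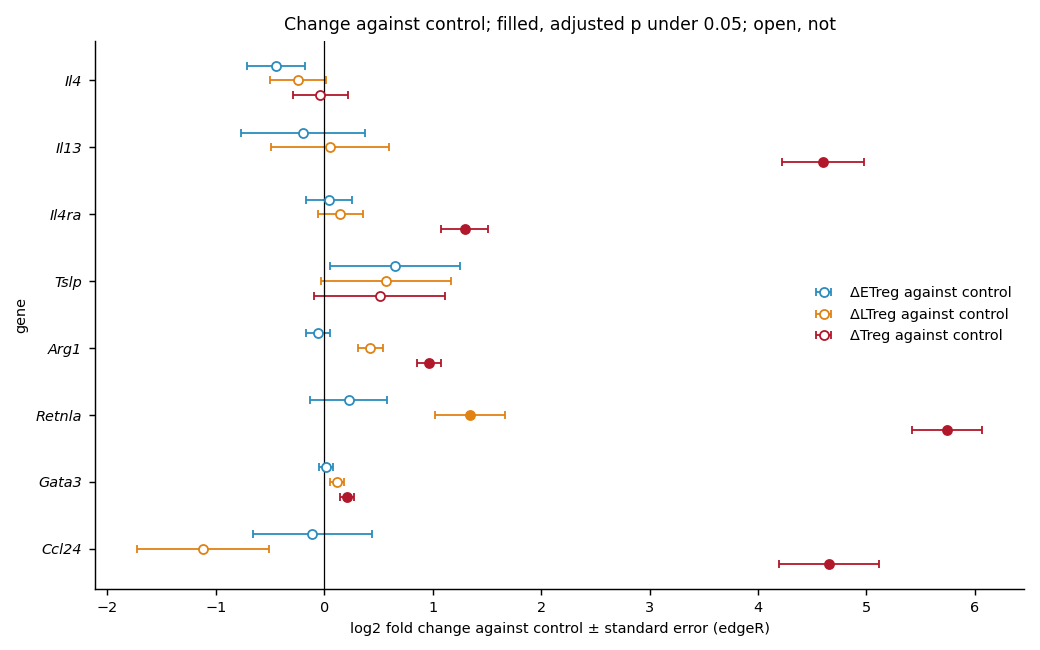
Log2 fold change against the same 2 control mice (horizontal axis, points, with SEs from edgeR) for the 8 genes detected in control skin (vertical axis), in ΔETreg, ΔLTreg and ΔTreg skin. Filled points passed an adjusted p of 0.05, and Il5 and Chil3 are left out because control skin had at most 1 count. Changes of 4.60 to 5.74 in Il13, Ccl24 and Retnla stand apart from values between -1.12 and 1.35 in the other groups.

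With both groups harvested on day 13, ΔTreg skin exceeded ΔLTreg skin in 7 of the 10 genes (all but Il4, Tslp and Gata3), where 16.8% of all genes passed and 10.7% passed as higher. Among the 7, Il5, Il13 and Chil3 reached the filter in ΔTreg skin alone and could pass only as higher. The log2 fold change of Il4 was 0.21 (SE 0.231, adjusted p = 0.594) and that of Tslp -0.06 (SE 0.484, adjusted p = 0.952). These groups differed in the number of doses as well as in the days of dosing. Against ΔETreg skin, harvested 4 days earlier, 8 of the 10 genes passed as higher in ΔTreg skin, where 23.1% of all genes passed and 13.2% passed as higher. They were the same 8 as against control, with log2 fold changes of 5.52 for Retnla (SE 0.264, adjusted p = 4.59e-07) and 4.79 for Il13 (SE 0.327, adjusted p = 3.09e-06). Il5, Il13 and Chil3 were again among the 8 and could pass only as higher. The calls of Il5 (adjusted p = 0.0309) and Gata3 (adjusted p = 0.0325) were not firm here. That of Il5 was lost without ΔETreg mouse 2 or 3 (adjusted p up to 0.113), and that of Gata3 without ΔETreg mouse 1 or 2, ΔLTreg mouse 2 or any ΔTreg mouse (adjusted p up to 0.122).

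ΔLTreg skin differed from control in 1 of the 10 genes, Retnla, where 4.55% of all genes passed and 1.86% passed as higher. Its level was 6.63 ± 2.48 CPM (SD, n = 3) against 2.64 ± 0.768 (SD, n = 2), a log2 fold change of 1.35 (SE 0.325, adjusted p = 0.0424). The call was lost in 7 of 11 fits that left out 1 mouse, with an adjusted p of up to 0.234: without either control mouse, any ΔETreg mouse, ΔLTreg mouse 1 or ΔTreg mouse 1. It was also lost with sex as a covariate and with the 2 groups alone in the fit. ΔLTreg mouse 1 had the highest Retnla level of its group (9.42 CPM). Eosinophil markers were also highest in this mouse, with a sum of 4.77 CPM beside 3.18 and 2.29 in the other ΔLTreg mice and 1.35 to 1.54 in control mice, and the eosinophil and macrophage gene Ear2 also passed as higher in ΔLTreg against control skin, with a log2 fold change of 1.25 (SE 0.307, adjusted p = 0.0447). Their part in the result was not tested.

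Arg1 lay higher in every ΔLTreg mouse than in the control mice, at 59.3 ± 2.93 CPM (SD, n = 3) against 44.1 ± 0.18 (SD, n = 2). Its log2 fold change of 0.43 (SE 0.112) missed the threshold, with an adjusted p of 0.057. It passed with DESeq2, with scaling by library size alone and without an expression filter, and without ΔTreg mouse 1 or 3. Over these settings and the others the adjusted p ranged from 0.000205 to 0.0744, and over the mice left out from 0.0134 to 0.194. Ccl24 lay lower in every ΔLTreg mouse, at 0.436 ± 0.118 CPM (SD, n = 3) against 0.95 ± 0.403 (SD, n = 2), with a log2 fold change of -1.12 (SE 0.607, adjusted p = 0.34). Without overlap of the groups, 3 genes (Arg1, Retnla and Gata3) lay higher and 1 lay lower in ΔLTreg skin, beside 15% and 17.2% of all genes. Between ΔLTreg and ΔETreg skin, which differed by 4 days of age, 2 of the 10 genes passed, both higher in ΔLTreg skin, where 6.38% of all genes passed and 3.12% passed as higher. These were Retnla, with a log2 fold change of 1.12 (SE 0.276, adjusted p = 0.0379), and Arg1, with 0.48 (SE 0.0989, adjusted p = 0.0179). Both calls were lost without ΔETreg mouse 1 or 2, and that of Retnla also without ΔETreg mouse 3, ΔLTreg mouse 1 or ΔTreg mouse 1, with an adjusted p of up to 0.0837 for Arg1 and 0.119 for Retnla.

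In ΔETreg skin, none of the 10 genes passed against control by edgeR's quasi-likelihood test or by DESeq2, and 0 had an unadjusted p under 0.05. Of all genes tested, 0.00544% passed. The largest distances among genes above the floor were those of Tslp, with a log2 fold change of 0.65 (SE 0.601), and Il4, with -0.45 (SE 0.268), each with an adjusted p of 1.0. Il4 was the single gene without overlap, lower in all 3 ΔETreg mice at 0.715 ± 0.134 CPM (SD, n = 3) against 0.964 ± 0.123 (SD, n = 2) in control skin, beside 10.3% of all genes that lay lower without overlap. Intervals of 95% on the log2 scale ran from -0.37 to 0.459 for Il4ra, -0.275 to 0.161 for Arg1 and -0.467 to 0.92 for Retnla, so that changes of the size seen in ΔTreg skin lay outside them.

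The order of the levels in ΔTreg skin was not that of control skin. Per kilobase of exon, control skin held Gata3 at 59.5 ± 1.1 CPM, Arg1 at 19.8 ± 0.0793, Il4ra at 8.28 ± 0.705 and Retnla at 4.41 ± 1.28 (SD, n = 2). Then followed Il4 at 0.785 ± 0.101 and Ccl24 at 0.734 ± 0.311, which did not differ beyond their spread, and Il13 at 0.182 ± 0.0709 and Tslp at 0.178 ± 0.0828, which did not either (SD, n = 2), with Il5 and Chil3 undetected. ΔTreg skin held Retnla first at 235 ± 46.7 CPM per kilobase, then Gata3 at 68.7 ± 1.65 and Arg1 at 38.7 ± 6.5 (SD, n = 3). Il4ra at 20.4 ± 4.5 and Ccl24 at 18.4 ± 9.62 did not differ beyond their spread, nor did Il13 at 4.58 ± 0.715 and Chil3 at 3.32 ± 1.84 (SD, n = 3). Il4 at 0.772 ± 0.145, Tslp at 0.256 ± 0.121 and Il5 at 0.223 ± 0.106 CPM per kilobase came last (SD, n = 3).

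Close relatives of the effector genes did not all follow them. Chil4, the chitinase-like gene beside Chil3, had 0 counts in both control mice and 37, 20 and 18 in ΔTreg skin, a log2 fold change of at least 3.02 when control is set to 3 counts per library (adjusted p = 0.00291). Part of its exon sequence is that of Chil3. Retnlg, a relative of Retnla made by neutrophils, had 5 and 1 counts in control and 32, 20 and 40 in ΔTreg skin, with a log2 fold change of 3.19 (SE 0.607, adjusted p = 0.00355). Retnlb, the intestinal member of that family, had at most 1 count in any mouse. Arg2, the mitochondrial arginase, had 398 and 383 counts in control and 289, 473 and 393 in ΔTreg skin, a log2 fold change of -0.18 (SE 0.107, adjusted p = 0.263) with overlap of the groups. Ccl11, the eotaxin made mainly by stromal cells, had 126 and 101 counts in control and 645, 747 and 704 in ΔTreg skin, with a log2 fold change of 2.49 (SE 0.186, adjusted p = 9.82e-06).

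Further genes of the pathway were counted by list, to be read beside all genes tested, of which 12.1% passed as higher in ΔTreg against control skin, 21.5% passed in either direction, and 4.55% passed in ΔLTreg against control skin. Genes that reached the expression filter in ΔTreg libraries alone are named, since they could be tested only where ΔTreg skin was higher. Of the other ligands, Il33, an alarmin, could be tested, with a log2 fold change of 0.68 in ΔTreg against control skin (SE 0.277, adjusted p = 0.106) and 1.05 against ΔLTreg skin (SE 0.248, adjusted p = 0.0136). Il9, Il31, Il25, Il3 and Csf2 were below the expression filter. Of 12 receptor genes, 9 passed as higher in ΔTreg against control skin, with a median log2 fold change of 1.01, and without Il9r, which reached the filter in ΔTreg skin alone, 8 of 11. Among them were Csf2rb, the common β chain of the IL-5, IL-3 and GM-CSF receptors, which rose 4.56-fold (adjusted p = 1.83e-05), and Il2rg, the common γ chain used by IL-4, which rose 4.95-fold (adjusted p = 2.93e-05). Il5ra, the chain specific to the IL-5 receptor, was below the expression filter. It had 5 and 8 counts in control and 4, 6 and 3 in ΔTreg skin. Il13ra2, the decoy receptor of IL-13, was named after its values were seen. It rose from 0.983 ± 0.3 CPM (SD, n = 2) to 13.4 ± 2.52 CPM (SD, n = 3), a log2 fold change of 3.77 (SE 0.349, adjusted p = 3.48e-05). Il1rl1, Il17rb and Il31ra, receptors of IL-33, IL-25 and IL-31, did not pass against control. Against ΔLTreg skin, 11 of the 12 passed as higher, all but Il17rb, beside 10.7% of all genes. Il9r was among them, tested through ΔTreg skin alone.

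Of 7 STAT6 signalling genes, 4 rose and 1 fell, with a median log2 fold change of 0.28, so that 71.4% passed beside 21.5% of all genes. Jak3, the kinase bound to the common γ chain, rose 2.65-fold (adjusted p = 1.44e-05), and Socs1, an inhibitor of cytokine signalling that interferons also induce, rose 4.27-fold (adjusted p = 2.86e-05). Irs1, an adaptor of insulin and IL-4 receptors, fell by 0.51 in log2 fold change (adjusted p = 0.000839). It was the 1 gene of this list that also passed in ΔLTreg against control skin, where it fell by 0.39 (SE 0.0762, adjusted p = 0.0189).

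Of 16 other genes of alternative activation, 14 rose in ΔTreg against control skin, with a median log2 fold change of 2.42, and Irf4 and Klf4 did not pass. Without Pdcd1lg2, Ccl17 and Chil4, over the filter in ΔTreg skin alone, 11 of 13 rose. Against ΔLTreg skin, 15 of the 16 passed as higher, beside 10.7% of all genes, with Klf4, Pdcd1lg2, Ccl17 and Chil4 among them. Mgl2, a lectin of dermal macrophages and dendritic cells, rose 6.26-fold against control (adjusted p = 7.87e-06). Of the 16, 0 passed in ΔLTreg against control skin by the quasi-likelihood test of edgeR. There, 4 had an unadjusted p under 0.05, all lower (Mrc1, Mgl2, Slc7a2 and F13a1), 2 of the 16 passed with DESeq2 and 5 passed without an expression filter. Genes of classical activation, the response to interferon γ and bacterial products, rose as well: 11 of 11 passed, with a median log2 fold change of 3.31 (2.88 with undetected levels at the floor), and DESeq2 called 9. Il6 and Ido1 reached the filter in ΔTreg skin alone, and 9 of the other 9 passed. Cxcl9, an interferon-induced chemokine, rose 139-fold (adjusted p = 7.57e-06) and Nos2, the nitric oxide synthase that uses the same substrate as Arg1, 9.91-fold (adjusted p = 9.87e-06). In ΔLTreg skin 1 of these 11 passed, Irf1, an interferon-induced transcription factor (log2 fold change 1.09, SE 0.252, adjusted p = 0.0365).

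Of 7 genes of Th2 cells and innate lymphoid cells, 3 rose (Ccr8, Klrg1 and Il10) and Bhlhe41 fell by 0.38 in log2 fold change (adjusted p = 0.0173), with a median log2 fold change of 0.22. Klrg1 and Il10 reached the filter in ΔTreg skin alone, and of the other 5 genes 1 rose and 1 fell, beside 21.5% of all genes that passed. Ccr8, a chemokine receptor of Th2 cells and skin Tregs, rose 4.97-fold (adjusted p = 0.00436), and Il10, a suppressive cytokine, went from 1 count in each control mouse to 9 to 13 counts, a ratio of 9.61 with a counting interval of 2.45 to 82.8 (adjusted p = 0.00296). Of 8 genes of Th1 and Th17 cells, 6 rose, with a median log2 fold change of 2.40, or 4 of 6 without Ifng and Tbx21, which reached the filter in ΔTreg skin alone. Il12rb1, a chain of the IL-12 receptor, rose 9.73-fold (adjusted p = 6.18e-06), and Tbx21, the Th1 transcription factor, went from 1 count in each control mouse to 48 to 59 counts, a ratio of 49.8 with a counting interval of 13.6 to 415 (adjusted p = 1.33e-05). Tbx21 was also the 1 gene of this list that passed in ΔLTreg against control skin, at 5 to 11 counts, a ratio of 6.78 with a counting interval of 1.68 to 59.3 (adjusted p = 0.034). DESeq2 called 0 genes of this list there.

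**Figure D3:**
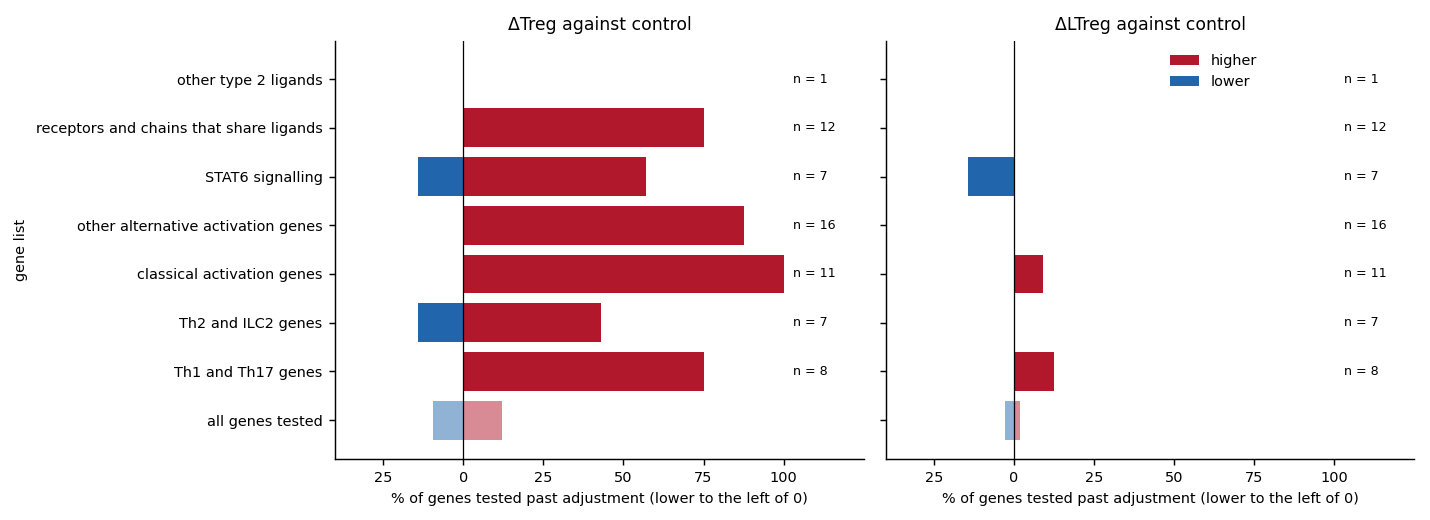
Share of the tested genes of each list that passed an adjusted p of 0.05 in edgeR (horizontal axes, percent, higher to the right of 0 and lower to the left) in ΔTreg and ΔLTreg skin against the same 2 control mice, with the number tested beside each bar and the share over all genes tested at the bottom. In ΔTreg skin, 14 of 16 other genes of alternative activation and 11 of 11 of classical activation were higher, and in ΔLTreg skin 0 of 16 and 1 of 11. Of these, 3 of the 16 and 2 of the 11 could be tested only because ΔTreg skin was higher.

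Markers of immune cells moved with these genes. In whole skin, more cells of a type and more RNA per cell cannot be told apart. T cell markers passed as higher in 8 of 9 genes in ΔTreg against control skin, and their summed level was 59.4 to 75.5 CPM in ΔTreg, 15.6 to 17.8 in control, 15.3 to 18.3 in ΔETreg and 17.7 to 21.8 CPM in ΔLTreg skin. Cd8a and Cd8b1, the chains of CD8, led this list with control counts at the floor. They reached the filter in ΔTreg skin alone, and 6 of the other 7 passed. Macrophage and monocyte markers passed in 5 of 11 (Adgre1, Cd68, C1qa, C1qb and C1qc) against control skin and in 10 of 11 against ΔETreg skin, with sums of 506 to 611 CPM in ΔTreg, 196 to 257 in control, 150 to 211 in ΔETreg and 121 to 299 CPM in ΔLTreg skin. C1qb, a complement subunit, rose 4.88-fold (adjusted p = 0.00149) and C1qc 4.46-fold (adjusted p = 0.00154). Against control, 9 of the 11 had an unadjusted p under 0.05, all higher in ΔTreg skin, and 10 passed without an expression filter. The control mice stood apart in genes of this list that were not called: Ly6c2, a monocyte antigen, had 71 counts in mouse 1 and 3 in mouse 2, Ccr2, a monocyte chemokine receptor, 316 and 81, and Fcgr1, an Fc receptor, 171 and 56.

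Of the eosinophil markers, 2 could be tested and both rose, but Prg2 reached the filter in ΔTreg skin alone: Ear2, a ribonuclease, rose 37.6-fold (adjusted p = 1.63e-06), and Prg2, the major basic protein, went from 1 or 2 counts in control to 15 to 29 counts in ΔTreg skin, a ratio of 13 with a counting interval of 4.26 to 64.7 (adjusted p = 0.00463). The sum of the list was 45.8 to 56.9 CPM in ΔTreg, 1.35 to 1.54 in control, 0.871 to 1.11 in ΔETreg and 2.29 to 4.77 CPM in ΔLTreg skin and came mostly from Ear2, which macrophages also express. The granule genes Epx and Prg3 had at most 2 and 1 counts in any mouse, and Ccr3, the receptor of CCL24 and CCL11, at most 6. Of 8 neutrophil markers, Ly6g and Camp were below the expression filter and were not tested. Ly6g had at most 2 counts in any mouse. Camp gave 7 to 10 counts in ΔTreg mice, which overlapped the 3 to 8 of ΔETreg mice, and at most 2 in control mice. Ngp, Mmp8 and Retnlg reached the filter in ΔTreg skin alone and had to differ in this direction to be tested. With these 3, neutrophil markers passed in 6 of 6 tested. Their sums were 33.2 to 40.9 CPM in ΔTreg, 12.7 to 13.8 in control, 8.84 to 11.1 in ΔETreg and 16.5 to 17.5 CPM in ΔLTreg skin. S100a9, a calcium-binding protein of neutrophils, rose 5.19-fold in ΔTreg skin (adjusted p = 4.69e-06). It was the 1 gene of the list that passed in ΔLTreg against control skin (log2 fold change 0.65, SE 0.162, adjusted p = 0.0468). DESeq2 called 0 genes of the list there. Of 9 mast cell and basophil markers, 2 passed as higher, or 1 of 7 without Mcpt8 and Fcer1a, which reached the filter in ΔTreg skin alone: Hdc, the enzyme that makes histamine, rose 3.58-fold (adjusted p = 0.000745), and Mcpt8, a basophil protease, had 0 counts in control skin and a log2 fold change of at least 3.09 with control at 3 counts per library (adjusted p = 0.00617). These were 22.2% of the list, beside 12.1% of all genes that passed as higher and 21.5% in either direction. The sum of that list was 128 to 161 CPM in ΔTreg and 143 to 151 CPM in control skin. The part of these cells in the levels of the 10 genes was not tested.

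**Figure D4:**
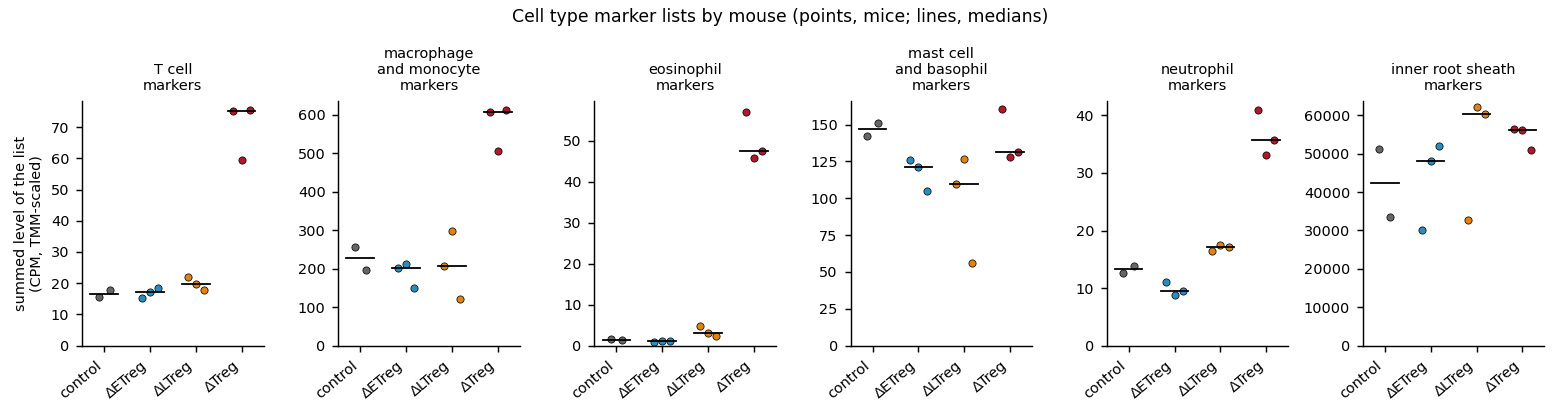
Summed level of the marker genes of 6 cell types in CPM (vertical axes, each from 0) for each mouse of the 4 groups (horizontal axes). Points are mice and lines are group medians, and T cell, macrophage, eosinophil and neutrophil sums of the ΔTreg mice lie above those of all other mice, while mast cell and basophil sums and inner root sheath sums overlap.

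For genes with a mean count of at least 50, the genes of most similar profile were found by the root mean square difference of log2 CPM, each centred on its own mean, over the 11 mice. Retnla was nearest to Ear2 (difference 0.379) and AA467197 (0.404). Ccl24 was nearest to 2610528A11Rik (0.4) and Gsdmc (0.538). For Il4ra these were Xdh (0.168) and Duox1 (0.184), for Arg1 Gch1 (0.0945) and Tnfrsf18 (0.0971), and for Gata3 Cdh1 (0.0262) and Zbtb7a (0.0323). The mice share the step between ΔTreg skin and the rest, so a small difference describes that step more than the spread within groups.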

How the data were processed

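Whole skin of 11 mice was measured by RNA sequencing. According to the labels and methods, the authors trimmed reads with Trimmomatic 0.36, aligned them to GRCm38 with STAR 2.5.2b and counted those on exons with featureCounts (Subread 1.5.2). The authors deposited raw counts per gene, without normalization. The annotation release and strand setting are not given in the sources used here. Names and positions came from GENCODE M21, in which 174 genes had no name.

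Counts were tested with edgeR 4.0.16 and limma 3.58.1 in R 4.3.3. Genes were filtered with filterByExpr by group (a minimum of 10 counts), libraries were scaled by TMM, and 1 model with a mean for each group was fitted to all 11 libraries, with a quasi-likelihood test for each of 6 pairs of groups. P-values were adjusted by the Benjamini-Hochberg method over the 18375 genes that passed the filter. With 2 or 3 mice in a group, these p-values rest on a spread shared across genes and groups. Standard errors are log2 fold changes divided by the square root of F. Intervals of 95% on log2 fold changes use a normal multiple of this error. They are thus somewhat narrower than the quasi-likelihood test would give. Intervals of counts are exact 95% intervals and cover counting error only. The quasi-likelihood test was first run on simulated counts, for ΔTreg and ΔETreg against control skin only.

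The genes and lists were chosen with earlier results of these data known. Named were all 10 genes, their close relatives, the 2 genes with the smallest p of each other list in ΔTreg against control skin, genes of a list that went against its majority, and the 2 nearest profiles. Other genes were named after their values were seen, among them Foxp3, Il13ra2, skin markers, calls in ΔLTreg skin and untested or uncalled genes of a list. Alternatives were DESeq2 1.42.0, scaling by DESeq2 size factors or by total counts, no expression filter, at least 10 counts in every library, sex as a covariate, the compared libraries alone, and each mouse left out in turn. Promoter sequences came from RefSeq (GRCm38.p6) and matched 7 of the 10 genes. Areg and Siglecf were not analysed here.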

Additional observations from a re-analysis of the deposited data

How the results depend on the processing

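Of 26 calls on single genes, 18 kept their direction and call in every setting that gave a value. Among the 18 were the calls of Il13 and Chil3, which could pass only as higher in ΔTreg skin. With at least 10 counts in every library, fewer genes could be tested, and 5, 4 and 5 genes passed in ΔTreg against control, ΔLTreg and ΔETreg skin, instead of 8, 7 and 8. In the same comparisons DESeq2 gave 7, 6 and 7, and the fit without an expression filter gave 7 in each. In ΔLTreg against control skin, 1 gene passed, beside 2 with DESeq2 or with library size alone, 3 without a filter, and 0 with sex as a covariate or with the compared libraries alone. In ΔLTreg against ΔETreg skin, 2 passed, beside 1 with sex as a covariate or the compared libraries alone. The cause of these shifts was not tested. Leaving out 1 mouse gave 6 to 8, 6 to 7 and 6 to 8 genes in the 3 comparisons of ΔTreg skin, 0 to 2 in ΔLTreg against control and against ΔETreg skin, and 0 in ΔETreg against control skin. With a control mouse left out, the lone control is assumed to vary like the other groups.

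No alternative other than leaving out a mouse turned a direction, and none of the results that turned was called. Over the mice left out, log2 fold changes against control ranged in ΔETreg skin from -0.52 to 0.28 for Il13, -0.0403 to 0.13 for Il4ra, -0.0557 to 0.54 for Retnla, -0.0258 to 0.0406 for Gata3 and -0.51 to 0.38 for Ccl24. They ranged from -0.27 to 0.53 for Il13 in ΔLTreg and from -0.16 to 0.12 for Il4 in ΔTreg skin. In ΔLTreg against ΔETreg skin they ranged from -0.0689 to 0.63 for Il13, -0.0245 to 0.31 for Il4ra and -0.48 to 0.31 for Tslp. For Tslp in ΔTreg skin they ranged from -0.54 to 0.17 against ΔLTreg and -0.62 to 0.26 against ΔETreg skin. Il5 and Tslp, at under 20 counts per mouse, were limited by depth, and DESeq2 gave Il5 no adjusted p in several comparisons. No paired analysis was possible because the labels give no replicate numbers that groups share.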
